A study of Homo sapiens with 17 samples.

Results

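The genes described here encode 10 AP-1 transcription factors and close relatives, namely FOS, FOSB, FOSL1, FOSL2, JUN, JUNB, JUND, ATF3, BATF3 and MAFF. They were picked by gene symbol from the 26457 RefSeq genes of the mRNA-seq table, and all 10 were among the 14800 genes tested, whose normalized reads averaged 2.5 or more. The libraries came from SW480, a human colon cancer cell line that expresses a missense mutant of p53 (mutp53). Both lines used carry a doxycycline-inducible short hairpin RNA and were grown with puromycin and doxycycline, 1 with a hairpin against LacZ (shLacZ cells, the control) and 1 with a hairpin against p53 (shp53 cells, depleted of mutp53). Each line was harvested untreated, at 0 h, or treated with 12.5 ng/ml TNF-α for 16 h, with 2 biological replicates, A and B, in each of the 4 groups. No untreated 16 h group is named in the sources used here, so TNF-α and time in culture cannot be told apart. Whether each hairpin line is 1 clone or a pool is not given in the sources used here, so that the hairpin and the history of the line cannot be told apart. Normalized reads are the reads on the exons of a gene, scaled by the authors to the same total in every library.

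AP-1 is a pair of proteins that bind each other through a leucine zipper and bind DNA through the basic region next to it. A member of the FOS family (FOS, FOSB, FOSL1, FOSL2) pairs with a member of the JUN family (JUN, JUNB, JUND), while JUN proteins can also pair among themselves or with ATF and BATF proteins. MAFF is a small MAF protein with a zipper but no activation domain of its own. MAP kinases, which TNF-α activates within minutes, phosphorylate JUN and drive transcription of several of these genes, so that FOS is best known as an immediate-early gene. FOSL1 (FRA-1) is known for its stability downstream of ERK signaling and for its high level in invasive carcinoma cells.

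The depth was between 6108488 and 13809578 reads on genes per library, and 1 read was worth between 0.67 and 1.515 normalized reads. Of 11 epithelial and colon markers, 9 had a mean of at least 2.5, and CDX1 had no more than 3 reads in any library. The summed level of the 11 genes lay between 75224 and 79620 normalized reads in shLacZ cells at 0 h, between 62744 and 62852 in shLacZ cells at 16 h, between 62392 and 62922 in shp53 cells at 0 h, and between 50532 and 51102 in shp53 cells at 16 h. Most of this sum was KRT8 and KRT18, with 26675 ± 1497 and 26720 ± 1236 normalized reads in shLacZ cells at 0 h (SD, n = 2), and the markers did not move together. From shLacZ cells at 0 h to shp53 cells at 0 h, VIL1 went from 513 ± 45.8 to 10.5 ± 2.57 and AXIN2 from 7062 ± 110 to 9675 ± 261, while with TNF-α in shLacZ cells CDH1 went from 476 ± 12.9 to 82.6 ± 6.19 and KRT19 from 7394 and 7114 to 8437 and 8465. Markers of other cells had far lower sums. The sum of 4 fibroblast markers was between 28.5 and 39.4 in shLacZ and between 56.2 and 176 in shp53 libraries, with COL1A2 and COL3A1 at or near 0. From shLacZ to shp53 cells at 0 h, COL1A1 went from 33.4 ± 0.035 to 97.0 ± 12.1 and PDGFRB from 5.2 ± 1.21 to 69.8 ± 0.17. PDGFRB was at 8.1 ± 0.77 in shp53 cells at 16 h. The sum of 4 leukocyte markers was between 42.4 and 56.6 in shLacZ and between 52.9 and 81.3 in shp53 libraries, with PTPRC at or near 0, and that of 3 endothelial markers was between 5.69 and 7.26 and between 17.6 and 28.8, with PECAM1 at or near 0. The part of these shifts in the AP-1 values was not tested. In bulk RNA, fewer expressing cells and less RNA per cell cannot be told apart.

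After 16 h of TNF-α, shLacZ cells had more FOSL1, JUNB, MAFF and BATF3 mRNA and less FOS mRNA. A gene is called here when the Benjamini-Hochberg adjusted p of limma, taken over all 14800 genes, is under 0.05 and the fold change of normalized reads + 1 is at least 2. By that rule 4 of the 10 genes were called higher and 1 was called lower, where 2.97% and 4.27% of all genes tested were. At the adjusted p alone, 7 of the 10 differed, compared with 26.3% of all genes. The median log2 change was 0.51 for the 10 genes and -0.05 for all genes tested.

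FOSL1 had 745 and 798 normalized reads in shLacZ cells at 0 h and 1998 and 1747 at 16 h. The libraries of the 2 times did not overlap, and the log2 change was 1.28 (standard error 0.08, adjusted p = 7.9e-10). FOS, the family's best known immediate-early gene, went the other way, from 552 and 538 to 169 and 142 normalized reads. Its log2 change was -1.81 (standard error 0.10, adjusted p = 2.3e-10). FOSL2, which encodes FRA-2, had 1117 and 1159 normalized reads at 0 h and 968 and 953 at 16 h, and its log2 change of -0.24 passed the adjusted p of limma (0.017) but was far from 2-fold. It was over 0.05 with DESeq2 (0.15) and without replicate B of shLacZ cells at either time. FOSB stayed between 47.0 and 50.3 normalized reads in all 4 shLacZ libraries, and those of 0 h and 16 h overlapped. The 4 members of the FOS family therefore had log2 changes that ranged from -1.81 to 1.28 in the same libraries.

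In the JUN family, JUNB rose from 414 and 420 to 1073 and 1006 normalized reads, a log2 change of 1.32 (standard error 0.08, adjusted p = 1.1e-09). JUN, the partner that JUN N-terminal kinases phosphorylate, had 374 and 371 normalized reads at 0 h and 868 and 636 at 16 h. Its log2 change was 0.99 (standard error 0.11, adjusted p = 1.5e-06), just under 2-fold. The 16 h libraries of JUN lay apart from each other, and without replicate B of shLacZ cells at 16 h the log2 change was 1.22. It was also at least 2-fold with edgeR (1.07), DESeq2 (1.07) and median-ratio scaling (1.04). JUND, which is the member most evenly expressed across tissues, had 1364 and 1283 normalized reads at 0 h and 1254 and 1144 at 16 h, with a log2 change of -0.14 (adjusted p = 0.18).

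Among the relatives, MAFF rose from 192 and 208 to 469 and 454 normalized reads, a log2 change of 1.20 (standard error 0.11, adjusted p = 9.7e-08). BATF3, which pairs with JUN proteins and is known from dendritic cells, had 14 and 5 reads at 0 h and 26 and 24 reads at 16 h, which is 10.2 and 7.57 and then 25.1 and 34.1 normalized reads. Its log2 change was 1.63, with the widest standard error of the 10 genes, 0.36 (adjusted p = 0.0024). ATF3, a stress-induced member that pairs with JUN, lay between 74.0 and 91.8 normalized reads in the 4 shLacZ libraries, and its 2 times overlapped.

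**Figure D1:**
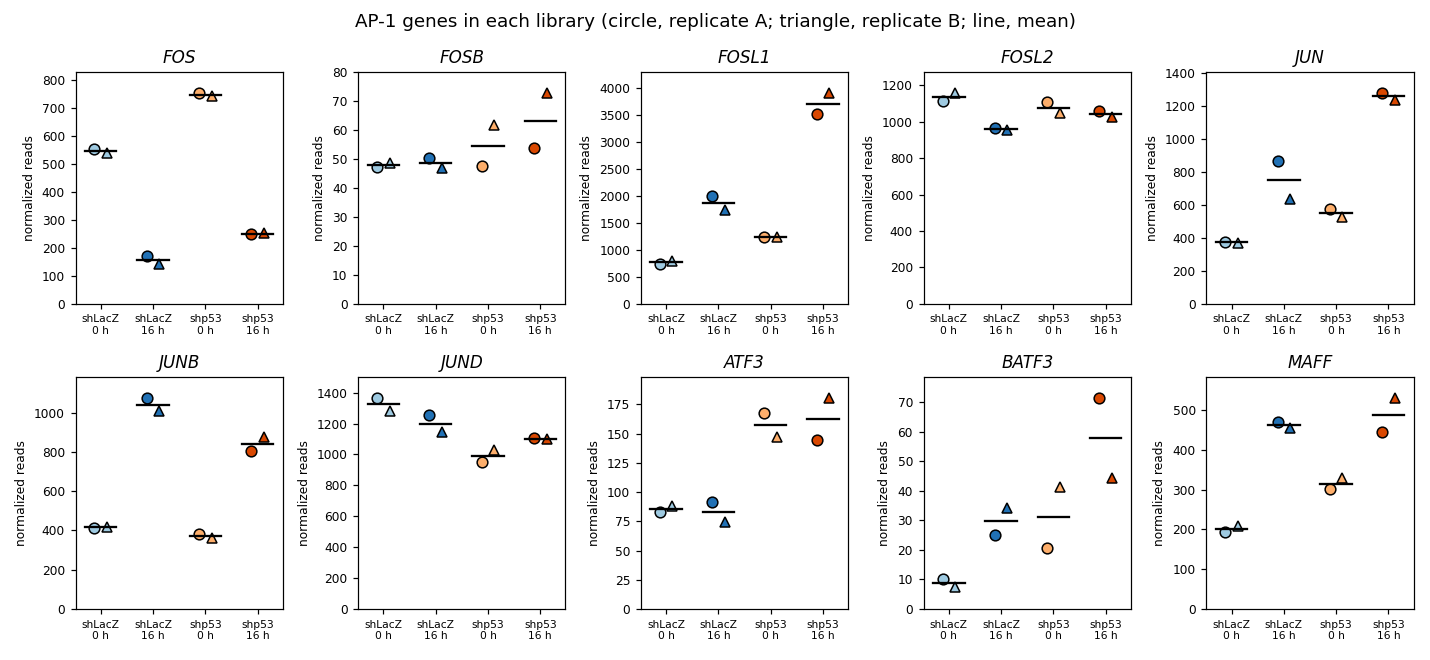
Normalized reads of the 10 AP-1 genes, with 1 panel per gene and a vertical axis from 0 in each. Circles are replicate A, triangles replicate B and lines the group means for shLacZ and shp53 cells at 0 h and 16 h of TNF-α. FOSL1 reaches 3516 and 3910 normalized reads in shp53 cells at 16 h, while FOS falls with TNF-α in both lines.

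In shp53 cells, FOSL1, JUN and JUNB mRNA were higher and FOS mRNA was lower after 16 h of TNF-α. The counts were 3 called higher and 1 called lower of the 10 genes, where 1.86% and 4.5% of all genes tested were called. At the adjusted p alone, 5 of the 10 differed, against 26.7% of all genes, and the median log2 change of the 10 was 0.41, beside -0.06 for all genes.

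FOSL1 went from 1232 and 1238 to 3516 and 3910 normalized reads, a log2 change of 1.59 (standard error 0.08, adjusted p = 7.0e-11). This was the highest level of any of the 10 genes in any library. FOS fell from 753 and 742 to 248 and 253 normalized reads, with a log2 change of -1.57 (adjusted p = 2.3e-09). FOSL2 had 1110 and 1048 normalized reads at 0 h and 1062 and 1027 at 16 h, and the libraries of the 2 times overlapped. Its log2 change of -0.05 turned to 0.02 with median-ratio scaling. FOSB had 47.6 and 61.7 normalized reads at 0 h and 53.7 and 72.8 at 16 h, which also overlapped.

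JUN rose from 574 and 527 to 1278 and 1238 normalized reads in shp53 cells, a log2 change of 1.19 (standard error 0.11, adjusted p = 1.9e-07). JUNB rose from 381 and 359 to 804 and 875, a log2 change of 1.18 (adjusted p = 7.1e-09). JUND had 952 and 1027 normalized reads at 0 h and 1105 and 1101 at 16 h, and the log2 change of 0.16 did not pass the adjusted p (0.14). MAFF had 301 and 329 normalized reads at 0 h and 444 and 529 at 16 h. It passed the adjusted p (0.00026), but the log2 change of 0.62 was under 2-fold. BATF3 had 31 and 30 reads at 0 h and 85 and 36 at 16 h, and its log2 change of 0.92 had a standard error of 0.36 (adjusted p = 0.070). By edgeR's quasi-likelihood test BATF3 was called here, with a log2 change of 1.13. ATF3 had 168 and 147 normalized reads at 0 h and 144 and 180 at 16 h, so that the 16 h libraries lay on either side of those of 0 h.

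Whether the change of these genes with TNF-α differed between the 2 lines was tested as the interaction, the depletion effect at 16 h less that at 0 h. The interaction passed the adjusted p for 1 of the 10 genes, where 2.86% of all genes tested did. That gene was MAFF, with a TNF-α change of 1.20 in shLacZ cells and 0.62 in shp53 cells as log2 values, and an interaction of -0.58 (standard error 0.15, adjusted p = 0.046). The call was lost, with an adjusted p of 0.065, under median-ratio scaling, and the adjusted p ranged from 0.023 to 0.25 over the 16 alternatives. Leaving out any 1 of 7 of the 8 libraries also lost it; the exception was replicate B of shp53 cells at 16 h. FOSL1 had an interaction of 0.31 (standard error 0.11, adjusted p = 0.19) and JUND of 0.30 (standard error 0.11, adjusted p = 0.18). The interactions of the other 7 genes lay between -0.71 for BATF3, with a standard error of 0.51, and 0.23 for FOS, with a standard error of 0.15. The median interaction was 0.19 for the 10 genes and -0.03 for all genes.

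Depletion of mutp53 at 0 h went with more ATF3, BATF3, FOS, FOSL1, JUN and MAFF mRNA and less JUND mRNA at the adjusted p alone, most of it under 2-fold. The median log2 difference was 0.51 for the 10 genes and 0.03 for all genes. These 7 of 10 genes stand beside 52.5% of all genes tested that passed the same adjusted p. With the 2-fold limit, only BATF3 was called higher, where 5.89% of all genes were, and 0 were called lower with limma, where 9.55% of all genes were. At an unadjusted p under 0.05, JUND alone was lower, and its log2 change was no lower than -0.47 under any of the 18 alternatives, edgeR and DESeq2 included. The TNF-α and depletion comparisons share libraries, the shLacZ cells at 0 h among them, so that they are not independent of each other.

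FOSL1 had 1232 and 1238 normalized reads in shp53 cells at 0 h and 745 and 798 in shLacZ cells, a log2 difference of 0.68 (standard error 0.08, adjusted p = 1.1e-06). FOS had 753 and 742 against 552 and 538, a log2 difference of 0.46 (standard error 0.10, adjusted p = 0.0011). JUN had 574 and 527 against 374 and 371, a log2 difference of 0.56 (adjusted p = 0.00032). The libraries of the 2 lines did not overlap for these 3 genes. The same held for ATF3, BATF3, JUND and MAFF, and also for JUNB and FOSL2, which did not pass the adjusted p of limma (0.096 and 0.39). Only the libraries of FOSB overlapped. The share of all genes without overlap was not counted, so that nothing is read from it for these genes. The 51 neighbouring genes on the chromosome had a median log2 difference of -0.28 around JUN, -0.10 around FOSL1, -0.03 around FOS, -0.20 around MAFF, -0.17 around JUND and -0.07 around FOSL2. It was 0.12 around JUNB and 0.12 around ATF3 and BATF3.

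ATF3 was 168 and 147 normalized reads against 82.7 and 87.9, a log2 difference of 0.87 (standard error 0.17, adjusted p = 0.00034). MAFF was 301 and 329 against 192 and 208, a log2 difference of 0.65 (adjusted p = 5.4e-05). BATF3 was 20.8 and 41.1 against 10.2 and 7.57, a log2 difference of 1.63 (standard error 0.36, adjusted p = 0.00099), on 31 and 30 reads against 14 and 5. JUND was lower, with 952 and 1027 normalized reads against 1364 and 1283 and a log2 difference of -0.42 (adjusted p = 0.00015). JUNB had 381 and 359 against 414 and 420 normalized reads, and its log2 difference of -0.17 did not pass (adjusted p = 0.096). With the median of its neighbours removed it was -0.29 and passed (adjusted p = 0.0094). This p takes the median as known, without its own uncertainty, and the share of all genes passing under this setting was not counted. FOSL2 had a log2 difference of -0.08 (adjusted p = 0.39). FOSB had one of 0.18 (adjusted p = 0.55) in a region whose 51 neighbouring genes had a median of -0.64, and with that median removed its difference was 0.81.

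At 16 h of TNF-α, shp53 cells had more ATF3, BATF3, FOS, FOSL1 and JUN mRNA and less JUNB mRNA than shLacZ cells at the adjusted p alone, which is 6 of the 10 genes, beside 51.3% of all genes. With the 2-fold limit, 0 were called higher and 0 lower with limma, where 5.03% and 10.2% of all genes were. At an unadjusted p under 0.05, 5 were higher and 1 was lower, and the calls numbered 1 with edgeR's quasi-likelihood test, 1 with its exact test and 0 with DESeq2. The median log2 difference was 0.52 for the 10 genes and -0.01 for all genes tested.

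FOSL1 was at 3516 and 3910 normalized reads in shp53 cells and at 1998 and 1747 in shLacZ cells, a log2 difference of 0.99 (standard error 0.08, adjusted p = 9.0e-09) that lay just under 2-fold. With the median of its neighbouring genes removed it was 1.16. Without replicate A of shLacZ cells at 16 h it was 1.08, and without replicate A of shp53 cells at 16 h it was 1.06. ATF3 was at 144 and 180 against 91.8 and 74.0, a log2 difference of 0.96 (standard error 0.17, adjusted p = 0.00014), and it also crossed 2-fold without either of those libraries (1.11 and 1.12). BATF3 was at 71.3 and 44.4 against 25.1 and 34.1, a log2 difference of 0.92 (standard error 0.36, adjusted p = 0.042). Its adjusted p ranged from 0.0064 with edgeR's exact test to 0.31 without replicate A of shp53 cells at 16 h, and it was also over 0.05 without either replicate of shLacZ cells at 16 h, with DESeq2, with no filter, with 0.1 added in place of 1 and with the median of the neighbouring genes removed.

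JUN was at 1278 and 1238 normalized reads against 868 and 636, a log2 difference of 0.76 (standard error 0.11, adjusted p = 1.3e-05). Its 51 neighbouring genes had a median of -0.32, and with that median removed the difference of JUN was 1.08. FOS, although lower after TNF-α in both lines, remained higher in shp53 cells, with 248 and 253 against 169 and 142 normalized reads and a log2 difference of 0.69 (adjusted p = 1.9e-05). JUNB was the only one of the 10 genes that was lower at the adjusted p, with 804 and 875 against 1073 and 1006 normalized reads and a log2 difference of -0.31 (adjusted p = 0.0050, and 0.073 without replicate A of shp53 cells at 16 h).

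MAFF, which differed between the lines at 0 h, had overlapping libraries at 16 h, with 444 and 529 against 469 and 454 normalized reads and a log2 difference of 0.07 (standard error 0.11, adjusted p = 0.60). JUND had a log2 difference of -0.12 (adjusted p = 0.20), which turned to 0.14 with the median of the neighbouring genes removed. FOSL2 had one of 0.12 (adjusted p = 0.17). FOSB had one of 0.36 (standard error 0.24, adjusted p = 0.22) and lay in a region with a median of -0.75; with that median removed it was 1.11.

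**Figure D2:**
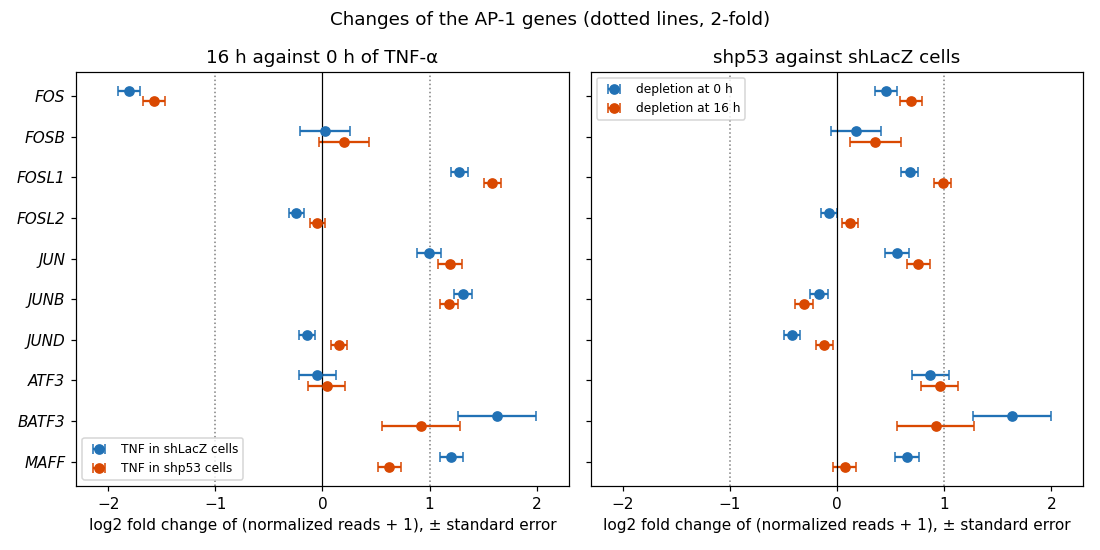
Log2 fold changes of normalized reads + 1, with standard errors from limma, for 16 h against 0 h of TNF-α in each line (left) and for shp53 against shLacZ cells at each time (right). Dotted lines mark 2-fold. FOS lies at -1.81 and -1.57 on the left and on the positive side on the right, and MAFF moves from 0.65 to 0.07 on the right.

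Across both steps, from shLacZ cells at 0 h to shp53 cells at 16 h, the mean of FOSL1 went from 771 ± 38.0 to 3713 ± 278 normalized reads (SD, n = 2), a ratio of 4.81. For JUN the ratio of the means was 3.37, for MAFF 2.44, for JUNB 2.01 and for ATF3 1.90. It was 6.53 for BATF3, on 14 and 5 reads at the start, and 1.32 for FOSB. For FOS it was 0.46, for JUND 0.83 and for FOSL2 0.92. These ratios are descriptions without a test.

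Levels can be compared between genes only per length, so normalized reads were divided by the exon length of each gene. In shLacZ cells at 0 h JUND came first, with 675 ± 29.0 normalized reads per kb (SD, n = 2). It was followed by FOSL1 with 443 ± 21.8, FOSL2 with 286 ± 7.46, FOS with 253 ± 4.75, JUNB with 230 ± 2.33, JUN with 112 ± 0.71, MAFF with 81.3 ± 4.38, ATF3 with 35.8 ± 1.53, FOSB with 12.7 ± 0.25 and BATF3 with 9.08 ± 1.88. The libraries of each neighbouring pair in this order did not overlap.

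In the other 3 groups FOSL1 came first. In shLacZ cells at 16 h it had 1075 ± 102 normalized reads per kb, ahead of JUND with 612 ± 39.7 and JUNB with 573 ± 26.2, which overlapped. FOSL2 and JUN (241 ± 2.57 and 227 ± 49.5) overlapped as well, as did ATF3 and BATF3 (34.8 ± 5.30 and 30.4 ± 6.53). FOS, which stood just below FOSL2 at 0 h, was now at 72.4 ± 8.84, behind MAFF with 188 ± 4.32, and FOSB was last with 12.9 ± 0.62. In shp53 cells at 0 h the order was FOSL1 (709 ± 2.63), JUND (486 and 524 in its 2 libraries), FOS (347 ± 3.75), FOSL2 (278 and 263 in its 2 libraries), JUNB (204 ± 8.34), JUN (166 ± 10.2), MAFF (128 ± 8.11), ATF3 (66.0 ± 6.18), BATF3 (31.7 ± 14.8) and FOSB (14.5 ± 2.65), with no neighbours that overlapped.

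In shp53 cells at 16 h FOSL1 stood at 2131 ± 160 normalized reads per kb. JUND followed with 563 ± 1.50, JUNB with 463 ± 27.7, JUN with 379 ± 8.49 and FOSL2 with 262 ± 6.29. MAFF (198 ± 24.5) and FOS (116 ± 1.59) came next. ATF3 and BATF3 overlapped at 68.1 ± 10.7 and 59.3 ± 19.4, and FOSB was at 16.8 ± 3.59.

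**Figure D3:**
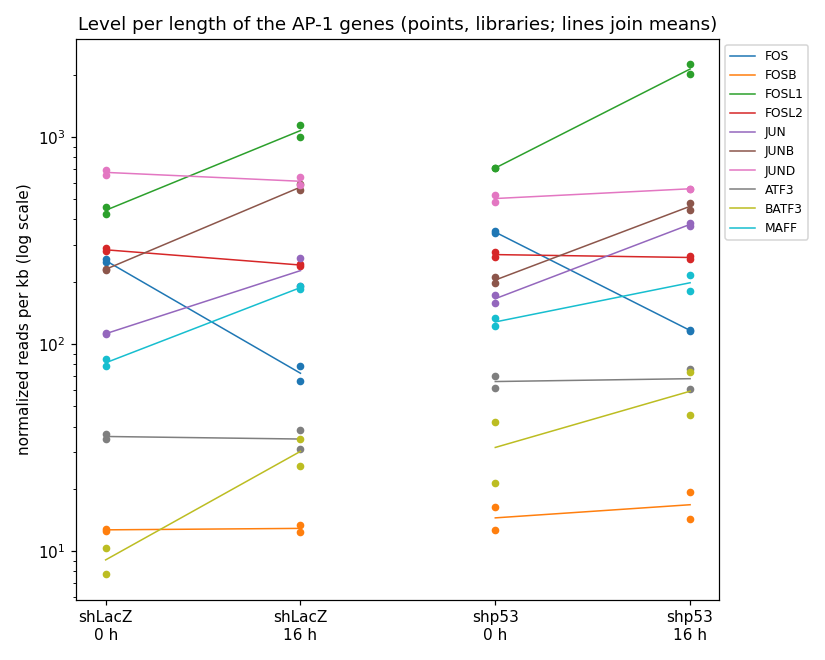
Normalized reads per kb of exon on a log axis for the 10 genes in the 4 groups, where points are libraries and lines join the means of 0 h and 16 h within a line of cells. The line of FOSL1 ends at 2131 in shp53 cells, above those of all other members, and the line of FOS falls in both lines of cells.

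Within the FOS family the mRNA shares moved from a mixture toward FOSL1. Per kb, FOSL1 made up 44.5% ± 1.09 of the FOS family in shLacZ cells at 0 h, 76.7% ± 1.04 in shLacZ cells at 16 h, 52.8% ± 0.57 in shp53 cells at 0 h and 84.3% ± 1.03 in shp53 cells at 16 h (SD, n = 2). The share of FOS was 25.5% ± 1.11 and 25.9% ± 0.10 at 0 h in the shLacZ and shp53 cells, and 5.16% ± 0.21 and 4.62% ± 0.23 at 16 h. FOSL2 went from 28.7% ± 0.035 to 17.2% ± 1.22 in shLacZ cells and from 20.2% ± 0.68 to 10.4% ± 0.90 in shp53 cells, while the log2 change of its own level was -0.24 and -0.05. FOSB had between 0.59% and 1.28% in every library.

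The ratio of FOSL1 to FOS per kb was 1.67 and 1.83 in the shLacZ libraries at 0 h and 14.6 and 15.2 at 16 h. In shp53 cells it was 2.02 and 2.06 at 0 h and 17.5 and 19.1 at 16 h. The summed level of the FOS family was 994 ± 24.8 and 1401 ± 114 normalized reads per kb in shLacZ cells at 0 h and 16 h, and 1341 ± 9.51 and 2527 ± 159 in shp53 cells. Without division by length FOSL2, whose transcript is long, made up 45.5% ± 0.13 of the family in shLacZ cells at 0 h and FOSL1 30.8% ± 0.80, but at 16 h FOSL1 was again ahead in both lines, with 61.6% ± 1.60 and 73.2% ± 1.59. Shares of mRNA do not give shares of protein, which was not measured in these libraries.

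Within the JUN family, JUND made up 66.4% ± 1.07 per kb in shLacZ cells at 0 h, 43.4% ± 0.73 in shLacZ cells at 16 h, 57.7% ± 2.53 in shp53 cells at 0 h and 40.1% ± 0.61 in shp53 cells at 16 h. JUNB had 22.6% ± 0.84 and 40.7% ± 1.47 in shLacZ cells at 0 h and 16 h, and 23.3% ± 1.18 and 33.0% ± 1.56 in shp53 cells. JUN had 10.9% and 11.2% in the shLacZ libraries at 0 h and 17.5% and 14.4% at 16 h, and 19.9% and 18.0% in the shp53 libraries at 0 h and 27.6% and 26.3% at 16 h. The ratio of JUN to JUNB, which differ in how strongly they activate transcription, was 0.49 and 0.48 in shLacZ libraries at 0 h, 0.44 and 0.35 at 16 h, 0.82 and 0.80 in shp53 libraries at 0 h and 0.87 and 0.77 at 16 h. It was thus higher in all 4 shp53 libraries than in all 4 shLacZ libraries. The summed level of the family at 16 h was 1412 ± 115 normalized reads per kb in shLacZ cells and 1405 ± 17.7 in shp53 cells, and at 0 h it was 1017 ± 27.4 and 875 ± 8.45. Without division by length, JUN came first in shp53 cells at 16 h with 39.3% ± 1.12, before JUND with 34.5% ± 0.30 and JUNB with 26.2% ± 1.41. JUND was still first in the other groups, with 62.6% and 40.2% in shLacZ cells at 0 h and 16 h and 51.8% in shp53 cells at 0 h.

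**Figure D4:**
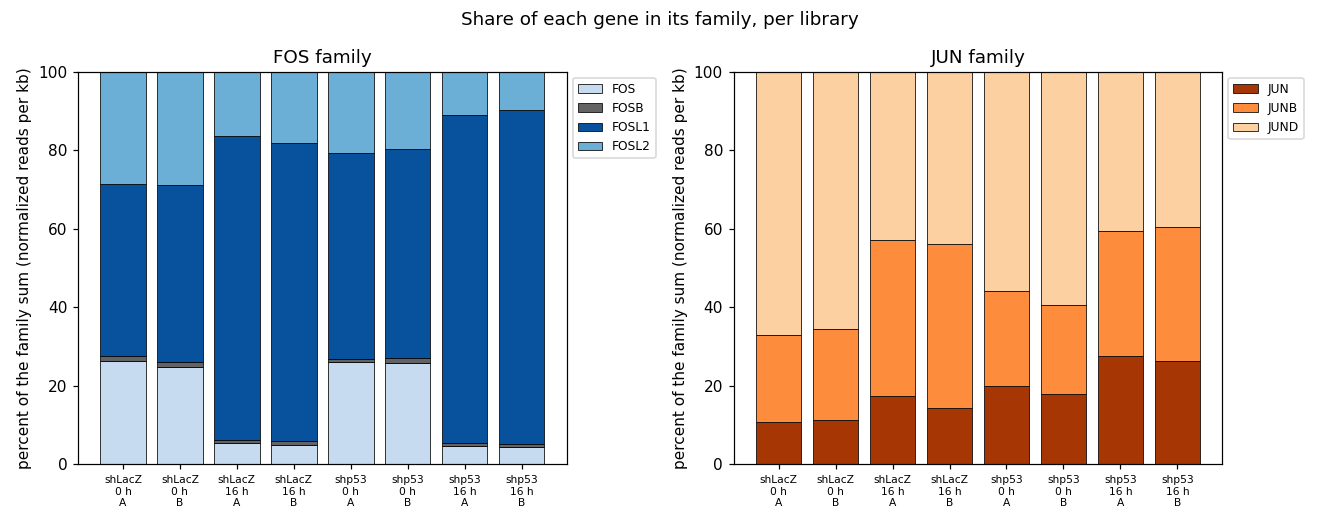
Percent of the summed normalized reads per kb that each gene of the FOS family (left) and JUN family (right) takes in each of the 8 libraries. FOSL1 goes from 43.8% and 45.3% in shLacZ cells at 0 h to 83.6% and 85.0% in shp53 cells at 16 h, and JUND is the largest part of the JUN family at 0 h in both lines.

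Several AP-1 genes carry binding sites for AP-1 or CREB and ATF factors in their own promoters, which is how they are known to regulate each other. RefSeq windows of 300 bases around the start, 250 before and 50 after, were at hand for 8 of the 10 genes in GRCh38.p14, with 10 windows in all because ATF3 and MAFF have 2 each. FOSL1 and BATF3 have no entry. The AP-1 site TGANTCA was in 1 of the 10 windows, and in 7.71% of the 35116 windows of all genes. The cAMP response element TGACGTCA was in 2 of the 10 windows and in 1.85% of all. With 1 free base, as TGACNTCA, which includes TGACGTCA and was added after the windows had been seen, it was in 4 of the 10 windows and in 7.72% of all. An NF-kB-like GGANTTTCC was in 1 of the 10 windows (the second window of MAFF) and in 1.64% of all, and the CArG box bound by SRF, searched by its consensus, was in 0 of the 10 and in 1.29% of all. All motifs were searched on both strands. Sites more than 250 bases before the start lay outside the windows, and sites that differ from these letters were not counted. A count of 0 therefore does not mean that a gene such as FOS lacks the site. The window of FOS, for example, holds TGACGTTT, which is no match to TGACNTCA.

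The 250 bases before the start of JUN (chr1:58784048-58784297, minus strand), JUND (chr19:18281623-18281872, minus strand), MAFF (chr22:38201744-38201993, plus strand) and ATF3 (chr1:212565157-212565406, plus strand) are shown because they hold the 4 matches to TGACNTCA, in capitals. The match begins 67 bases before the start in JUN, 200 in JUND, 54 in MAFF and 123 in ATF3.
JUN: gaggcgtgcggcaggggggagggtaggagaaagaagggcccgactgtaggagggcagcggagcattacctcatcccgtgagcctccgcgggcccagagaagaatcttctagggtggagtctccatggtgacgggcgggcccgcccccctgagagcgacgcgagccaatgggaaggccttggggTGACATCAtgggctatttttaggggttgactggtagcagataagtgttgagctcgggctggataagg
JUND: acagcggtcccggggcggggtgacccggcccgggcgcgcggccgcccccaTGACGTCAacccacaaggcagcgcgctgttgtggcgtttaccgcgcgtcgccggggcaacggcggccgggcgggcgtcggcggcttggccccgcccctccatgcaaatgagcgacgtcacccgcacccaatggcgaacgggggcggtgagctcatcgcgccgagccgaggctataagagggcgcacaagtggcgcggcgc
MAFF: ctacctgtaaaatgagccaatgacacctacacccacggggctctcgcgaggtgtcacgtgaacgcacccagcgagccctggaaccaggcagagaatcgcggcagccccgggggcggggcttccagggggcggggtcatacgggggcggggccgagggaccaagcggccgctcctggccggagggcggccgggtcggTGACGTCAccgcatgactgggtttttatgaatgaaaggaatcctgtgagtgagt
ATF3: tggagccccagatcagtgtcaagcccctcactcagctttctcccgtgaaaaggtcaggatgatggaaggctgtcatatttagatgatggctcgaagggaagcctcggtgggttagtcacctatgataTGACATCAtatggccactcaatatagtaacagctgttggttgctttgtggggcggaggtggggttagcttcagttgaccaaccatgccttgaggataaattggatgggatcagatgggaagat
In FOSL2 the single match to TGANTCA lies just after the start, from base 5, and is shown in capitals within chr2:28392852-28392878 of the plus strand.
FOSL2: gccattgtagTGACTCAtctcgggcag
The 4 genes with TGACNTCA did not share a pattern of change. JUN was at a log2 change of 0.99 and MAFF at 1.20 with TNF-α in shLacZ cells, while JUND was at -0.14 and ATF3 at -0.05, and of these 4 genes ATF3, JUN and MAFF were higher and JUND was lower in shp53 cells at 0 h. A match of letters is a description of the window and not evidence of binding.

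The genes whose levels over the 8 libraries were most like those of FOSL1 were sought among 1081 genes with a mean of at least 10 and a range at least as wide. That range left out JUN, whose r with FOSL1 was 0.99. By Pearson's r of log2 values they were CDC42EP2 (0.99), DKK1 (0.98), AKAP12 (0.98), BCL6 (0.98) and ANTXR2 (0.97). The 8 libraries form 4 groups of 2, so that these values describe the group pattern and are given without a test. CDC42EP2, an effector of the small GTPase CDC42, went from 144 ± 6.13 to 378 ± 72.1 normalized reads in shLacZ cells and from 289 ± 12.3 to 720 ± 27.1 in shp53 cells. DKK1, a secreted Wnt antagonist, went from 51.7 ± 14.7 to 247 ± 10.8 and from 127 ± 17.1 to 524 ± 8.15. AKAP12, a scaffold for protein kinase A, went from 2389 ± 259 to 6717 ± 496 and from 5279 ± 235 to 14834 ± 876. BCL6, a transcriptional repressor, went from 29.6 ± 1.20 to 68.0 ± 4.50 and from 59.6 ± 2.87 to 151 ± 23.8, and ANTXR2, an anthrax toxin receptor, from 4.78 ± 2.47 to 18.2 ± 1.60 and from 12.2 ± 0.20 to 53.3 ± 10.2.

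Of 33 other genes with a basic leucine zipper, 32 were tested. With TNF-α in shLacZ cells 1 was called higher and 3 lower, where 2.97% and 4.27% of all genes were, and the list median was 0.06 beside -0.05 for all genes. In shp53 cells limma and edgeR called 5 lower and DESeq2 4, where limma called 4.5% of all genes. None was called higher by any of these tools, a count of 0, where limma called 1.86% of all genes. At an unadjusted p under 0.05, 6 were higher and 6 lower, while 26.7% of all genes passed the stricter adjusted p. The list median was 0.01 beside -0.06 for all genes. JDP2, a repressor that pairs with JUN, fell from 267 ± 34.4 to 73.8 ± 3.71 normalized reads in shLacZ cells (log2 change -1.84, adjusted p = 3.4e-08) and from 283 ± 0.71 to 66.9 ± 7.35 in shp53 cells. DBP, a circadian output factor, had a log2 change of -1.66 in shLacZ cells (adjusted p = 0.00027).

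Mutp53 depletion at 16 h called 3 of the 32 higher and 3 lower, where 5.03% and 10.2% of all genes were called. At 0 h it called 4 higher and 2 lower, where 5.89% and 9.55% of all genes were. DDIT3 (CHOP), the stress-response member that pairs with C/EBP proteins, was at 138 ± 13.6 and 139 ± 18.8 normalized reads in shLacZ cells and at 588 ± 30.8 and 583 ± 13.3 in shp53 cells at 0 h and 16 h. Its log2 difference at 16 h was 2.07 (adjusted p = 1.1e-10). CREB5 had a log2 difference of 1.72 (adjusted p = 0.0055) and NFE2L3, a CNC family member, one of -1.29 (adjusted p = 3.1e-09) at 16 h. ATF3, which is known to be induced with DDIT3 in the stress response, had differences of 0.87 and 0.96 in the same comparisons.

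Of 31 MAP kinase, SRF and ELK genes that act upstream of AP-1, 29 were tested. With TNF-α in shLacZ cells limma called 1 higher and edgeR and DESeq2 2, where limma called 2.97% of all genes, and in shp53 cells each tool called 1, where limma called 1.86% of all genes. None of these tools called a gene lower, a count of 0 in each line, where limma called 4.27% and 4.5% of all genes. At an unadjusted p under 0.05, 10 were higher and 4 lower in shLacZ cells, and 8 were higher and 8 lower in shp53 cells. The stricter adjusted p was passed by 26.3% and 26.7% of all genes in the 2 lines. Depletion at 0 h called 1 higher and 0 lower with limma, and 0 higher and 1 lower with edgeR and with DESeq2. Limma called 5.89% of all genes higher and 9.55% lower. At an unadjusted p under 0.05, 10 were higher and 10 lower, while 52.5% of all genes passed the stricter adjusted p. At 16 h 0 were called in either direction by limma, edgeR or DESeq2, where limma called 5.03% of all genes higher and 10.2% lower. At an unadjusted p under 0.05, 8 were higher and 9 lower, while 51.3% of all genes passed the adjusted p. MAP4K4, a kinase upstream of JUN N-terminal kinase, rose from 1408 ± 26.9 to 3425 ± 170 normalized reads in shLacZ cells (log2 change 1.28, adjusted p = 1.1e-10) and went from 2333 ± 129 to 3633 ± 37.1 in shp53 cells. Its interaction was -0.64 (adjusted p = 0.00073), and its 16 h levels differed between the lines by 0.09 on the log2 scale (adjusted p = 0.31). MAFF and MAP4K4 each had a higher 0 h level after depletion and log2 differences at 16 h of 0.07 and 0.09.

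All 24 other immediate-early genes on the list were tested. With TNF-α in shLacZ cells 4 were called lower and 1 higher, where 4.27% and 2.97% of all genes were, with a list median of -0.20 beside -0.05 for all genes. In shp53 cells 1 was called lower and 1 higher, where 4.5% and 1.86% of all genes were, with a list median of 0.28 beside -0.06. CTGF, a matricellular protein, fell from 151 ± 14.0 to 21.2 ± 13.8 normalized reads in shLacZ cells (log2 change -2.93, adjusted p = 1.1e-06) and went from 79.3 ± 0.33 to 47.5 ± 7.88 in shp53 cells (log2 change -0.74, adjusted p = 0.095). EGR3, a zinc finger factor, had log2 changes of -1.52 and -0.83 in the 2 lines, and KLF2 of -1.46 and -1.21.

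Mutp53 depletion at 16 h called 3 of the 24 higher and 1 lower, where 5.03% and 10.2% of all genes were, with a list median of 0.41 beside -0.01 for all genes. CYR61, a matricellular protein like CTGF, was at 387 ± 56.0 normalized reads in shLacZ and at 1111 ± 7.82 in shp53 cells at 16 h (log2 difference 1.53, adjusted p = 2.6e-10). KLF2 had a log2 difference of 1.02 (adjusted p = 1.3e-05), CTGF of 1.28 (adjusted p = 0.0024) and NR4A2, an orphan nuclear receptor, of -1.65 (adjusted p = 0.0016). The interaction, called in 2.86% of all genes, passed the adjusted p of limma for 4 of the 24 as positive and for 0 as negative, with 2 negative at an unadjusted p under 0.05 and 0 by edgeR or DESeq2. The positive ones included CTGF (2.19, adjusted p = 0.0091) and CYR61 (0.52, adjusted p = 0.039).

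Of 30 textbook AP-1 target genes, 29 were in the table and 20 were tested. With TNF-α 7 were called higher in shLacZ cells and 9 in shp53 cells, where 2.97% and 1.86% of all genes were, with list medians of 0.69 and 0.39 beside -0.05 and -0.06 for all genes. In each line 0 were called lower by limma, edgeR or DESeq2, where limma called 4.27% of all genes in shLacZ and 4.5% in shp53 cells. At an unadjusted p under 0.05, 3 were lower in each line. MMP9, a gelatinase, had no more than 3 reads in any 0 h library and reached 469 ± 140 normalized reads in shLacZ cells at 16 h, at least 139.6-fold above a floor of 3 reads per library, and 165 ± 9.83 in shp53 cells, at least 53.9-fold above it. CXCL8, the neutrophil chemokine, also had no more than 3 reads in any 0 h library, and reached 50.4 ± 19.0 and 66.2 ± 1.17 (at least 15.0-fold and 21.6-fold). CCL2, the monocyte chemokine, went from 3.33 ± 0.42 to 1764 ± 288 and from 4.05 ± 1.85 to 440 ± 192. NF-kB also acts on these 3 genes, so the list is not particular to AP-1.

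Of the 20 targets, limma and edgeR called 6 lower in shp53 cells at 16 h and DESeq2 5, and 0 were called higher by any of these tools. Among all genes limma also called more lower than higher at 16 h, 10.2% against 5.03%. At an unadjusted p under 0.05, 10 targets were lower and 6 higher, while 51.3% of all genes passed the stricter adjusted p. The list median was -0.16 beside -0.01 for all genes. CCL2 had a log2 difference of -2.06 (adjusted p = 1e-05), ITGB6, an integrin subunit, of -1.82 (adjusted p = 0.00069) and MMP9 of -1.47 (adjusted p = 0.012). At 0 h 1 was called higher and 3 lower, where 5.89% and 9.55% of all genes were, with a median of -0.18 beside 0.03. The highest levels of FOSL1 were thus in the 2 libraries of shp53 cells at 16 h, in which these 3 targets were below their levels in shLacZ cells at 16 h.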

How the data were processed

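SW480 cells with a hairpin against LacZ or p53 were profiled by strand-specific poly(A) mRNA-seq at 0 h and 16 h of TNF-α, 2 biological replicates per group. Per the methods, the authors mapped 50-base reads with STAR, and per the table's header they counted them on RefSeq exons with HOMER; versions are not given in the sources used here. The table deposited by the authors holds signal values, which are these reads times 1 factor per library, under a header that names hg19, whereas the methods name hg38. Hence no gene coordinates of the table are printed, and promoter windows are those of RefSeq in GRCh38.p14. All values came out as whole reads (100% within 0.05 reads), with 6108488 to 13809578 reads on genes per library. The authors' own fold changes, p-values and adjusted p-values in the table were not used, and the ChIP-seq and GRO-seq samples were not analysed here.

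The test was limma 3.58.1 (R 4.3.3) with a mean-variance trend, on log2(normalized reads + 1), as a model of 4 group means over all 8 libraries. It ran on 14800 genes whose normalized reads averaged 2.5 or more. Fold changes on this scale understate those of low genes. A call needed 2-fold and a Benjamini-Hochberg adjusted p under 0.05, and for the interaction that p only. The added 1, the filter, the scaling (by the median ratio), the tool (edgeR 4.0.16 and DESeq2 1.42.0 on the recovered reads), the replicate letter, the neighbouring genes and each library were varied. The procedure was tested on simulated data. The members and gene lists were chosen with earlier results of these data known. Named genes are the 10 members, the 3 largest changes per list among those called with TNF-α in shLacZ cells and among those called for depletion at 16 h, and the 5 genes most like FOSL1 among those with a mean of at least 10 and a range at least as wide. The level of the hairpin's target and 1 gene that this rule gives are not reported here. Replicate letters appear only in the table's columns. The p-values of limma rest on the spread between the 2 replicates of a group, pooled over the 4 groups and drawn toward the trend over all genes tested. They do not measure the spread within the 2 compared groups alone. Figures were drawn with Python 3.11.15 and matplotlib 3.10.9.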

Additional observations from a re-analysis of the deposited data

Results flagged for a closer look

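MAFF was flagged because its TNF-α response differed between the 2 lines by a test of the difference itself, limma's interaction. The interaction was -0.58 on the log2 scale (standard error 0.15, adjusted p = 0.046), with a TNF-α change of 1.20 in shLacZ cells and 0.62 in shp53 cells. The normalized reads of MAFF were 192 and 208 in shLacZ cells and 301 and 329 in shp53 cells at 0 h, and 469 and 454 against 444 and 529 at 16 h. The lines were therefore apart at 0 h and overlapped at 16 h. The adjusted p was 0.065 with median-ratio scaling, 0.076 with no filter, 0.066 with 0.1 added in place of 1 and 0.19 with DESeq2, and it was over 0.05 without any 1 of 7 of the 8 libraries. The size of the interaction stayed between -0.71 and -0.45 over the 16 alternatives.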

How the results depend on the processing

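For 50 log2 changes of the members, 860 values were recomputed under the alternatives. Direction and side of the threshold held in 810 values, 18 newly passed the threshold, 11 lost it, all of them the interaction of MAFF, and 21 changed sign. For 39 of the 50 no value changed sign. Part of the 860 values could not change sign, because the log2 change is the same by construction. This holds for a left-out library outside the compared groups, for the filters and for the replicate block. The 810 therefore overstate how far the alternatives put the values to the test. The number of members called for depletion at 16 h, 0 with limma, was 1 with edgeR's quasi-likelihood test, 1 with edgeR's exact test, and 0 to 2 with 1 library left out. The number with an interaction, 1 with limma, was 0 with median-ratio scaling, with no filter, with a pseudocount of 0.1 and with DESeq2, and 0 to 1 with 1 library left out. The exact test gives no interaction. With the median of neighbouring genes removed, a setting left out of these counts, FOSB (1.11), FOSL1 (1.16) and JUN (1.08) passed both limits for depletion at 16 h. The p-values of limma there take that median as known, and the share of all genes passing was not counted. The cause of these moves was not tested.

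Changes of sign were confined to values that were not called. For TNF-α in shLacZ cells, ATF3 was 0.032 with edgeR's quasi-likelihood test, 0.031 with the exact test and 0.025 with DESeq2, and for TNF-α in shp53 cells FOSL2 was 0.020 with median-ratio scaling, 0.0099 and 0.0095 with the 2 edgeR tests and 0.017 with DESeq2. JUND at 16 h was 0.14 with the median of neighbouring genes removed. With 1 library left out, TNF-α in shLacZ cells gave -0.026 to 0.071 for FOSB and -0.20 to 0.11 for ATF3, and TNF-α in shp53 cells gave -0.014 to 0.42 for FOSB and -0.12 to 0.20 for ATF3. Depletion gave -0.0071 to 0.36 for FOSB at 0 h and -0.054 to 0.20 for MAFF at 16 h. The interaction gave -0.036 to 0.40 for FOSB, -0.025 to 0.42 for JUN and -0.072 to 0.25 for ATF3.

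The deviations of same-lettered libraries correlated between groups at -0.019 to 0.074 over the genes tested, so that these values showed little shared effect of the replicate letters A and B. This cannot tell whether libraries with the same letter were handled together. The A libraries had between 9572568 and 13809578 reads on genes and the B libraries between 6108488 and 7498590. With the letter as a replicate block, members called numbered 5 and 4 for TNF-α in shLacZ and shp53 cells, 1 and 0 for depletion at 0 h and 16 h, and 1 for the interaction, which are the numbers without it. Depth limits BATF3 most, with 5 to 85 reads per library.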
